A study of Mus musculus with 4 samples.

Results

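Immediate early genes were examined in endothelial cells (ECs) of the mouse lung after unilateral pneumonectomy (PNX). The genes were 10 in number, namely the AP-1 genes Fos, Fosb, Jun and Junb, the stress-induced factor Atf3, the zinc finger genes Egr1 and Egr3, the nuclear receptor gene Nr4a1, and Ier2 and Ier3. They were taken by symbol, and all 10 were found among the 24063 gene symbols of the deposited tables. Where a symbol had several transcripts, the one counted most in the 4 libraries together was used, which involved a choice only for Egr3, which had 3 transcripts in the tables.

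The sham group held 2 libraries from C57BL6J mice that underwent thoracotomy without removal of lung, and the PNX group held 2 libraries from C57BL6J mice 7 days after removal of the left lung. All mice were wild type, 8 weeks old and male by the labels, and each library was made from the pooled cells of 2 mice. Lungs were cut, digested with collagenase at body temperature, filtered, treated with a red cell lysis buffer and selected on magnetic columns with an antibody to CD31. The methods describe plating of isolated ECs for later experiments, and whether the RNA was taken before plating is not given in the sources used here.

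Immediate early genes are those that cells switch on within minutes of a stimulus without making new protein first. Growth factors, stretch, shear stress, cytokines and injury reach them through MAP kinases and through factors such as SRF, its ELK partners and CREB, which sit on the promoters before the stimulus. Their products are mostly transcription factors, and both the RNA and the protein are usually short-lived. Enzymatic digestion of a tissue is widely known to switch on the same genes, which is why their level in cells freshly taken from a tissue is often read as a sign of handling.

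The counts on 1 transcript per gene came to between 41367438 and 50952879 per library. At this depth the limit that a count of 0 allows, 3 counts, was between 0.0589 and 0.0725 CPM, the count scaled to the library total, which covers counting error only. Libraries of a group were close to each other, with a mean chi-square per gene of 1.76 in sham and 1.52 after PNX where 1 would be counting noise alone, against 134 and 120 between a sham and a PNX library of the same number. The p-values, standard errors and intervals below therefore rest on a small spread between the libraries of a group, and they measure only that spread. Whether a spread this close to counting noise holds the full spread between mice was not tested. None of the 44 Y chromosome genes in the tables had a count in any library, while Xist, the RNA of the inactive X chromosome, had between 29890 and 36875 counts, which goes against the label male in all 4 libraries. Of 12 endothelial markers 10 were lower after PNX at an adjusted p under 0.01 and 1 was higher, with a median log2 fold change of -0.31, so values are given relative to all genes and, for the 10 genes and the lists around them, also relative to those markers. In bulk RNA, fewer cells of a type and less RNA per cell cannot be told apart.

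In sham ECs, meaning the CD31-selected fraction of sham lungs, 9 of the 10 immediate early genes were among the most abundant transcripts of the library. The fraction also held other cells, described below, so these levels are of the fraction as a whole. Fos, the gene of the c-Fos subunit of AP-1, stood highest, with 560 and 559 FPKM (counts scaled to transcript length and library total, as deposited) in the sham libraries and 516 and 524 FPKM in the PNX libraries. By its mean level in sham ECs it ranked 25 among the 17540 genes with a count in every library. Jun, the gene of the c-Jun subunit, ranked 45, with 427 and 445 FPKM in sham and 307 and 318 FPKM after PNX. For comparison, the level of Actb, the gene of beta-actin, was 668 ± 5.85 FPKM (SD, n = 2) in sham ECs and that of Pecam1, the gene of CD31, was 374 ± 1.12 FPKM (SD, n = 2). Fos thus stood between the cytoskeletal gene and the gene by whose product the cells were selected.

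Ier3, an early gene tied to survival under stress, had 299 ± 3.88 FPKM (SD, n = 2) in sham ECs, Junb had 270 ± 5.38 FPKM (SD, n = 2) and Egr1 had 245 ± 2.70 FPKM (SD, n = 2). These levels placed 5 of the genes in the top 1% of genes in sham ECs, above a bound of 197 FPKM. Below that bound came Nr4a1 with 135 ± 0.616 FPKM, Atf3 with 135 ± 0.114 FPKM, Fosb with 119 ± 1.09 FPKM and Ier2 with 116 ± 4.38 FPKM (SD, n = 2 each), all within the top 5%. The 9 genes stood between 27.4 and 132 times above the median gene, which had 4.23 FPKM in sham ECs. The exception was Egr3, with 5.48 ± 0.217 FPKM (SD, n = 2), rank 7750 of the 17540 genes and 102 times below Fos.

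The order of the levels in sham ECs was Fos, Jun, Ier3, Junb, Egr1, Nr4a1, Atf3, Fosb, Ier2 and Egr3, and only Fosb and Ier2 overlapped with their neighbour between the 2 sham libraries. Over all 4 libraries Ier3 and Junb overlapped too, as did Nr4a1 and Atf3. After PNX the order was the same except for Ier3, which moved from place 3 to place 5, below Junb and Egr1. The deposited TPM values gave the same order in sham ECs. No library of undigested lung was analysed here, so RNA present in the lung and RNA made during digestion and sorting cannot be told apart in these levels, and both groups were prepared in the same way by the methods.

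**Figure D1:**
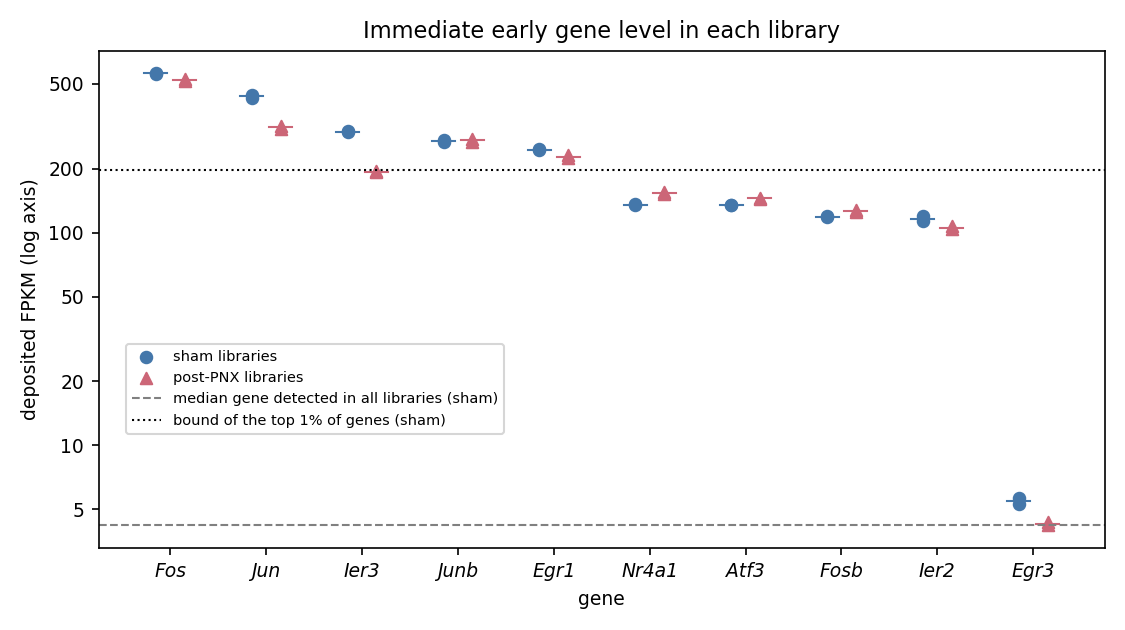
Level of the 10 immediate early genes in each library, as deposited FPKM on a log axis, with sham libraries as circles, PNX libraries as triangles and short lines at the group means of 2 libraries. 9 of the genes lie above 100 FPKM in every library and Egr3 lies near the median gene (dashed, 4.23 FPKM in sham); the dotted line is the bound of the top 1% of genes, 197 FPKM in sham.

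Together the 10 genes held 0.859% ± 0.0115 (SD, n = 2) of the counts on 1 transcript per gene in sham and, after PNX, 0.766% ± 0.00915 (SD, n = 2). Both sham libraries were above both PNX libraries. Of the 10 genes Jun, Ier3 and Fos had the largest falls in CPM. With 2 libraries against 2 this sum was not tested further.

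The promoters of these genes hold short elements at which upstream factors are known to act. The RefSeq table of promoters (build GRCm38.p6) had entries of 250 bases before to 50 after the start site for 7 of the 10 genes. Egr1, Egr3 and Ier2 were not looked at here. The CRE core TGACG, read on both strands, was in 5 of the 7, namely Fos, Fosb, Junb, Atf3 and Nr4a1, and in 20.8% of all 32851 promoters of the table. Nr4a1 held 4 copies of it and Fos 2, with the nearest copies starting 40 and 66 bases before the start site. The EGR site GCGNGGGCG was in Fosb and Nr4a1, and in 5.55% of all promoters. The letters TATAAA of the TATA box were in Fos, starting 33 bases before the start site, and in 13.6% of all promoters. In Junb these letters began only at the first transcribed base, so among the 7 genes only Fos held them before the start site. The full CRE TGACGTCA, the AP-1 site TGANTCA and the CArG box, the element of SRF, had no match in the 7 windows, and were in 1.79%, 7.81% and 1.63% of all promoters. Elements more than 250 bases before the start site lie outside these windows and were not searched, so no match here does not mean that a gene lacks the element. Jun and Ier3 held no exact match to any of the motifs searched. Forms of an element that differ from these letters were not searched for, so such forms may stand in these windows. The full CRE and the CRE core overlap by their letters.

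The sequences are the 250 bases before the start site, 5′ to 3′ on the strand of the gene. They are those of Fos and Nr4a1, which carried the most matches, and of Jun and Ier3. Jun and Ier3 carried no exact match, and their RNA differed most between the groups. A link between the motifs and the change in RNA was not tested. The window of Nr4a1 lies inside the span of the gene (101253902 to 101274795), so its start site is an internal one. Other start sites of Nr4a1 were not looked at. Capitals mark the CRE core on either strand (TGACG or its complement CGTCA), the EGR site of Nr4a1 and the TATA box of Fos.
Fos, chr12:85473640-85473889, plus strand: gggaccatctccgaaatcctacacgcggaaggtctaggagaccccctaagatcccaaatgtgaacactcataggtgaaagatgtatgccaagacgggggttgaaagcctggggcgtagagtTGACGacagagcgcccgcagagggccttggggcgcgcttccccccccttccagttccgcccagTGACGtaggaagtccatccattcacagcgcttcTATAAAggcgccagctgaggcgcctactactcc
Nr4a1, chr15:101266596-101266845, plus strand: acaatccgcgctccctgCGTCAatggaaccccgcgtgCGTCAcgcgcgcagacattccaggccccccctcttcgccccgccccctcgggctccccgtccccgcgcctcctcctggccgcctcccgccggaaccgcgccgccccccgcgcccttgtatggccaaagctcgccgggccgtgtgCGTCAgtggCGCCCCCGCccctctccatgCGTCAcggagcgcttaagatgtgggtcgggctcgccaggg
Jun, chr4:95052223-95052472, minus strand: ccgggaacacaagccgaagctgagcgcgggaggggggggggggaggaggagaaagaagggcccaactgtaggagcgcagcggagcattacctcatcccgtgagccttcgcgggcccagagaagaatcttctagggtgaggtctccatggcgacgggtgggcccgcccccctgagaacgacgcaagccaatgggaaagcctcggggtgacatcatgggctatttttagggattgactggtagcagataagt
Ier3, chr17:35821463-35821712, plus strand: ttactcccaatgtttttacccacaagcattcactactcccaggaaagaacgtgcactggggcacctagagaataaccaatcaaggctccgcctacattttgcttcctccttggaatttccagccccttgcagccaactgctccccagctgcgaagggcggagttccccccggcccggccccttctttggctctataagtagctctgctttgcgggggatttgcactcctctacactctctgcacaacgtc

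The immediate early genes were also short. Their median span on the genome was 3568 bases and their median number of exons 3, against 22000 bases and 8 exons over the 15951 genes tested that could be matched to an annotated transcript. Jun, Junb and Ier2 had a single exon. In the 3′ UTR, where AU-rich elements mark RNAs for fast decay, 7 of the 10 genes had at least 2 copies of ATTTA, against 46.02% of the genes tested. Ier3 had 5 copies in 613 bases, a density exceeded by 1.81% of the genes tested, Nr4a1 had 3 copies in 543 bases and Fos 4 in 815 bases. Ier2 had none. The annotated transcript matched to Egr3 had a 3′ UTR of only 50 bases, which held none, while the transcript counted for Egr3 is 3925 bases long. The annotated 3′ UTR of Egr3 may thus be incomplete, and Egr3 stands among the 10 genes with an uncertain value. This feature was chosen after the expression values were seen.

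PNX ECs were compared with sham ECs to ask whether the immediate early genes differed between lungs that regrow and lungs that do not. In the quasi-likelihood fit of edgeR, at a Benjamini-Hochberg adjusted p under 0.01, 6 of the 10 genes were lower after PNX and 3 were higher, whatever the size of the change, beside 27.8% lower and 29.3% higher among all 16208 genes tested. Of the 872 genes with a mean of at least 10000 counts, to which 9 of the 10 belong, 45.9% were lower and 41.3% higher, so that passing the test was common among genes counted this often. None of the 10 reached a 2-fold change, beside 5.9% of all genes that were higher and 1.66% that were lower by more than 2-fold at the same adjusted p, and under the same rule DESeq2's Wald test also called 0 of the 10. Over the 10 genes the median log2 fold change came to -0.12, and over all genes tested to 0.00. In size alone the changes were small, with a median of 0.13 without sign against 0.22 over all genes.

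In CPM the PNX libraries were both below the sham libraries in 6 of the genes and both above in 3, beside 40.5% and 40.8% of all genes tested, and they overlapped in Junb. Scaled to the 12 endothelial markers in place of the TMM factors, the median log2 fold change of all genes became 0.27 and 7 of the 10 genes were higher and 2 lower. The share of all genes called at any size under this scaling was not counted. Because the scaling moves all genes upward, counts called under it, here and in the lists below, are not read as a result about those genes. A change of scaling shifts all genes by almost the same amount, so by construction the places of the 10 genes relative to all genes hardly move. Fos, for example, was at -0.11 from the median of all genes under either scaling. Directions below are relative to the library total after TMM, and the endothelial scaling stands beside each of the 10 genes and each list.

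**Figure D2:**
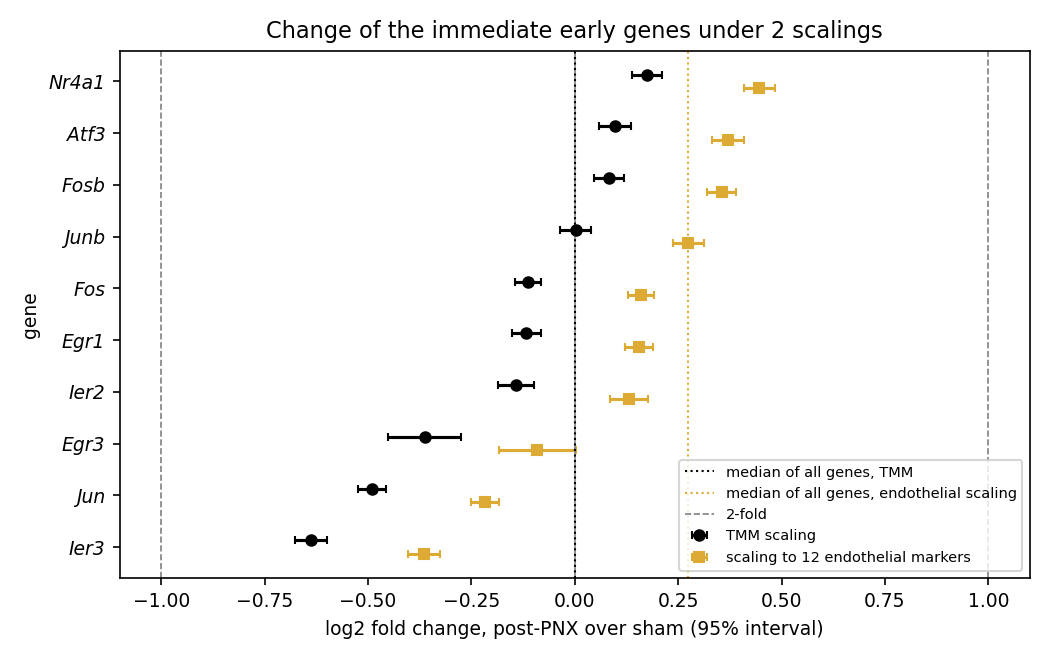
Log2 fold change of PNX over sham ECs for the 10 immediate early genes with its 95% interval from edgeR's fit, under TMM scaling (circles) and scaling to 12 endothelial markers (squares); dotted lines are the medians of all genes under each scaling (0.00 and 0.27) and dashed lines are 2-fold. Under TMM 6 genes lie below 0 at an adjusted p under 0.01 and 3 above, Junb lies at 0, and under the endothelial scaling Fos, Egr1 and Ier2 turn from lower to higher and Junb becomes higher.

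Among the AP-1 genes, whose products pair as Fos and Jun family dimers, Jun differed most. Jun, on chromosome 4 from 95049036 to 95052222 (mm10), had 2176 and 2268 CPM in sham and 1554 and 1610 CPM after PNX. Both sham libraries were far above both PNX libraries. Jun fell with a log2 fold change of -0.49 (edgeR, SE 0.017, adjusted p = 1.9e-34), with a 95% interval from -0.52 to -0.46, and was lower under the endothelial scaling as well, at -0.22. A change of this size or more was seen in 22.4% of all genes tested.

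Fos, on chromosome 12 from 85473890 to 85477274, had 1875 and 1869 CPM in sham and 1715 and 1745 CPM after PNX. Its libraries did not overlap, and the sham libraries differed from each other by less than those after PNX. The log2 fold change was -0.11 (edgeR, SE 0.016, adjusted p = 5.2e-09), a fall of 7.55% relative to all counts, and 0.16 under the endothelial scaling. Fosb, the gene of the FosB subunit on chromosome 7 from 19302696 to 19310118, had 711 and 720 CPM in sham and 751 and 765 CPM after PNX. Both PNX libraries were above both sham libraries, and the log2 fold change was 0.08 (edgeR, SE 0.018, adjusted p = 4.0e-05), and 0.36 under the endothelial scaling.

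Junb, on chromosome 8 from 84976909 to 84978748, had 781 and 803 CPM in sham and 777 and 809 CPM after PNX. The sham values lay inside the range of the PNX values. The log2 fold change was 0.00 with a 95% interval from -0.04 to 0.04 (edgeR, adjusted p = 0.94). Under the endothelial scaling Junb was higher after PNX, at 0.27.

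Ratios within a library do not depend on how libraries are scaled to each other, and they showed that the AP-1 genes changed by different amounts. The ratio of Jun to Junb, by FPKM, was 1.61 and 1.63 in sham and 1.15 and 1.15 after PNX. The ratio of Fos to Jun went the other way, with 1.31 and 1.25 in sham and 1.68 and 1.65 after PNX. The ratio of Fos to Fosb was 4.75 and 4.68 in sham and 4.12 and 4.12 after PNX. In none of these ratios did the groups overlap, and with 2 libraries against 2 they were not tested further.

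Atf3, the gene of a factor of the ATF and CREB family that is switched on by many stresses, lies on chromosome 1 from 191170296 to 191183333. It had 425 and 425 CPM in sham and 458 and 452 CPM after PNX. Both PNX libraries were higher, with a log2 fold change of 0.10 (edgeR, SE 0.019, adjusted p = 8.1e-06), and 0.37 under the endothelial scaling.

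The genes of the EGR zinc finger factors were both lower after PNX, by different amounts. Egr1, on chromosome 18 from 34861207 to 34864956, had 1195 and 1213 CPM in sham and 1091 and 1129 CPM after PNX. Its log2 fold change was -0.12 (edgeR, SE 0.017, adjusted p = 1.9e-08), close to that of Fos, and 0.16 under the endothelial scaling. Egr3, on chromosome 14 from 70077317 to 70082613, had 35.3 and 33.4 CPM in sham and 27.2 and 26.3 CPM after PNX. Its log2 fold change was -0.36 (edgeR, SE 0.044, adjusted p = 1.3e-10). Under the endothelial scaling it was -0.09 and no longer passed (adjusted p = 0.071). The ratio of Egr1 to Egr3 by FPKM was 43.2 and 46.4 in sham and 51.3 and 54.8 after PNX, without overlap.

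Nr4a1, which encodes the orphan nuclear receptor Nur77 and lies on chromosome 15 from 101253902 to 101274795, had the largest rise of the 10 genes. It had 534 and 537 CPM in sham and 610 and 597 CPM after PNX. Both PNX libraries were higher, with a log2 fold change of 0.17 (edgeR, SE 0.018, adjusted p = 9.5e-13), a rise of 12.8% relative to all counts, and 0.45 under the endothelial scaling. Its ratio to Fos by FPKM was 0.241 and 0.243 in sham and 0.301 and 0.289 after PNX.

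Ier3, on chromosome 17 from 35821713 to 35822911, had the largest change of the 10 genes in either direction. It had 515 and 525 CPM in sham and 331 and 337 CPM after PNX. The groups were separate by many times their spread, and the log2 fold change was -0.64 (edgeR, SE 0.019, adjusted p = 9.2e-38), with a 95% interval from -0.68 to -0.60. It was lower under the endothelial scaling as well, at -0.36. Among the 786 other genes with from 0.5 to 2 times its mean count, 7.00% had a larger change.

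Ier2, a single-exon gene of a nuclear protein on chromosome 8 from 84661331 to 84662852, had 274 and 289 CPM in sham and 258 and 253 CPM after PNX. The log2 fold change was -0.14 (edgeR, SE 0.022, adjusted p = 7.8e-08), and 0.13 under the endothelial scaling. The ratio of Ier2 to Ier3 by FPKM was 0.381 and 0.395 in sham and 0.558 and 0.537 after PNX, so that Ier3 was lower relative to Ier2 after PNX. None of the 10 genes overlaps another RefSeq gene on the genome.

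**Figure D3:**
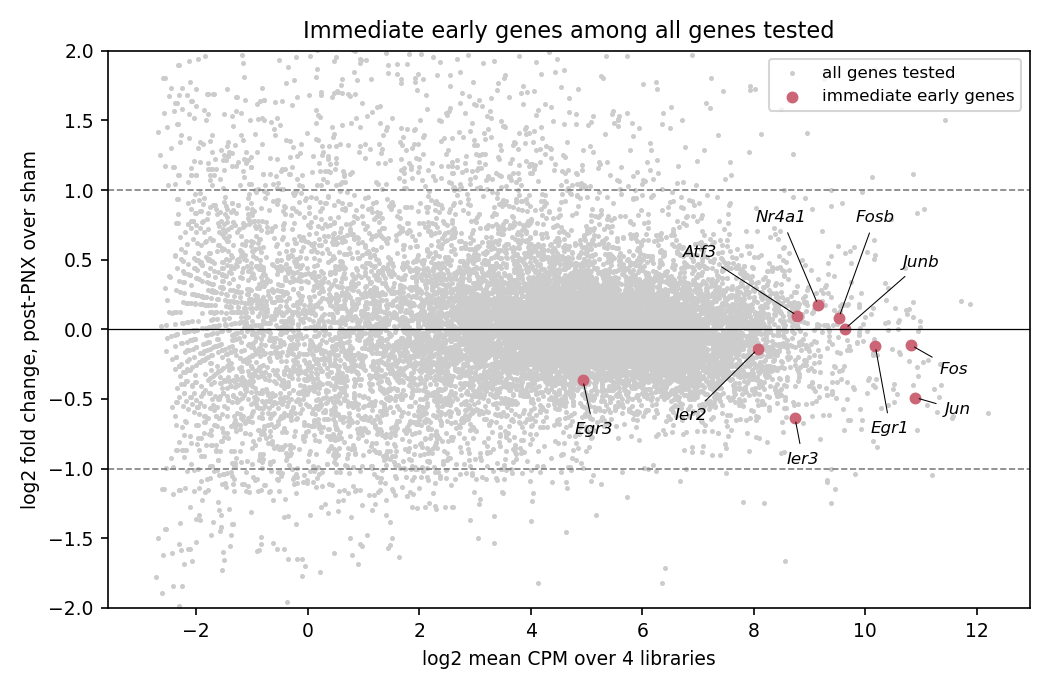
Log2 fold change of PNX over sham ECs (TMM scaling) against the log2 of the mean CPM over 4 libraries for all 16208 genes tested (grey) and the 10 immediate early genes (red, named); dashed lines are 2-fold and 400 genes lie outside the plotted range of 2 on either side. Except for Egr3 the immediate early genes lie at the right, among the genes with most counts, and all 10 lie within the 2-fold lines.

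The spread of these genes between libraries of a group was set beside that of other genes counted as often. The largest log2 difference between libraries of a group was 0.08, in Egr3 in sham, and the smallest was 0.0025, in Atf3 in sham. For Fos the within-group SD was 0.013 on the log2 scale, against a median of 0.013 in 92 genes with from 0.5 to 2 times its mean count. Jun, Junb, Ier2 and Egr1 were more variable, with SDs of 0.039, 0.035, 0.041 and 0.027 against medians of 0.012, 0.014, 0.018 and 0.014 in the genes counted like them. The change in Ier3 was 34.8 times its within-group SD, that in Jun 12.6 times and that in Ier2 3.46 times.

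Over the 4 libraries the pattern of Fos, centred on its mean, was closest to those of 4833439L19Rik, Ubqln1, Sod1, Slc15a4 and Hspa12a, by distances between 0.0038 and 0.0091 on the log2 scale. Egr1 was at 0.025 from Fos, rank 138 among the genes tested, and Ier2 at 0.075. Ier3 was the farthest of the 10 genes, at 0.52. With 4 libraries many genes lie close to any one pattern.

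Other members of the same families were read from lists. Of 21 other genes of the AP-1, MAF, ATF and CREB families, 7 were higher and 9 lower after PNX by edgeR at the same threshold and the median log2 fold change was -0.07. Relative to the endothelial markers, 14 were higher and 2 lower, with a median of 0.20. Batf3, a factor of dendritic cells, rose from 1.47 and 1.55 CPM to 3.39 and 2.88 CPM (log2 fold change 1.06). Maf rose with 0.74, and the largest falls were in Batf2 (-0.57), Mafk (-0.46) and Atf7 (-0.39). Atf4, the factor of the integrated stress response, had the highest level of this list, at 117 FPKM in sham ECs, and fell with a log2 fold change of -0.29, but did not pass under the endothelial scaling (-0.02), nor did Atf7 (-0.12). Jund, the remaining Jun gene, had 331 and 364 CPM in sham and 331 and 359 CPM after PNX (edgeR, adjusted p = 0.76), and was higher under the endothelial scaling (0.26).

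Of the 8 other EGR, NR4A and IER genes and the EGR corepressors Nab1 and Nab2, 5 were higher after PNX and none lower, and the median log2 fold change was 0.22 (edgeR, same threshold). Scaled to the endothelial markers, 8 of the 8 were higher, with a median of 0.49, beside a median of 0.27 over all genes. The other NR4A genes were higher after PNX too. Nr4a2 had 26.1 and 26.2 CPM in sham and 43.2 and 42.4 CPM after PNX (log2 fold change 0.71), and Nr4a3 had 13.8 and 14.7 CPM in sham and 22.2 and 22.8 CPM after PNX (0.66). Egr4 had 5 and 1 counts in sham and 43 and 47 counts after PNX, and its log2 fold change of 3.97 (SE 0.43) rests on those few counts. Ier5 had the highest level of the list by FPKM, rank 1365 of the 17540 genes in sham ECs, and a log2 fold change of 0.10. Egr2 had 95.3 and 97.4 CPM in sham and 97.4 and 96.9 CPM after PNX (edgeR, adjusted p = 0.69), and was higher under the endothelial scaling (0.29).

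Of 41 other primary response genes that were tested, 14 were higher and 21 lower by edgeR at the same threshold, with a median log2 fold change of -0.09. By the endothelial scaling, the balance turned, with 29 higher and 8 lower and a median of 0.19. Edn1, the gene of the vasoconstrictor endothelin-1, fell from 314 and 316 CPM to 132 and 135 CPM, a log2 fold change of -1.24 and the only one past 2-fold, which it was not under the endothelial scaling (-0.97). Klf2, a factor induced by laminar flow, had -0.67 and the clock gene Per1 had -0.62. Thbd, the gene of thrombomodulin, had the highest level of this list, at 442 FPKM in sham ECs, and fell with -0.55. Klf2, Per1 and Thbd were lower under the endothelial scaling too, at -0.40, -0.34 and -0.27. The largest rises were in Areg (0.72), which encodes amphiregulin, Arc (0.59) and Ptgs2 (0.53), which encodes cyclooxygenase 2.

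Genes that switch the MAP kinases off were lower or higher on balance depending on the scaling. Of 15 genes of the DUSP phosphatases, Sprouty and Spred proteins, 9 were lower and 2 higher by edgeR at the same threshold, none past 2-fold, with a median log2 fold change of -0.17. Relative to the endothelial markers, 3 were lower and 6 higher, with a median of 0.11. The largest falls were in Spry1 (-0.63), Dusp8 (-0.48) and Dusp6 (-0.38), which were lower under both scalings, and the rises were in Dusp4 (0.21) and Spred1 (0.09). Dusp1, itself an immediate early gene, had the highest level, at 246 FPKM in sham ECs, close to that of Egr1, with 751 and 774 CPM in sham and 674 and 686 CPM after PNX, a log2 fold change of -0.17 that became 0.11 under the endothelial scaling.

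Of 25 genes of the MAP kinase pathway, 9 were higher and 10 lower, with a median of 0.03, and under the endothelial scaling 20 were higher and 1 lower, with a median of 0.30. The only one past 2-fold was Mapk10, the kinase JNK3, with 9 and 4 counts in sham and 20 and 19 after PNX, a call that was lost with DESeq2's Wald test and without PNX library 1, PNX library 2 or sham library 2, as was that of Mef2b. Mapk13 (0.45) and Mapk11 (0.40) followed, and Rps6ka1 (-0.37), Map2k6 (-0.36) and Braf (-0.24) fell most, of which Map2k6 (-0.09) and Braf (0.03) did not pass under the endothelial scaling. Mapk3, the kinase ERK1, had the highest level at 145 FPKM in sham ECs and did not pass (edgeR, adjusted p = 0.21). Of 14 factors that act upstream, 9 were lower and 1 higher, with a median of -0.17, and under the endothelial scaling 3 were lower and 7 higher, with a median of 0.11. Elk4 (-0.46), Mkl2 (-0.44), Creb1 (-0.34) and Srf (-0.25) were lower, Mef2b (-1.60) had 24 and 26 counts in sham and 8 and 7 after PNX, and Mef2c (0.10) was higher. Scaled to the endothelial markers, Creb1 (-0.07) and Srf (0.02) did not pass. Elk3 had the highest level, at 44.6 FPKM in sham ECs, and did not pass (edgeR, adjusted p = 0.032). Creb1 and Srf each stand in a second of these lists and were counted there too.

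Genes of NF-kB and its early targets were mostly higher after PNX. Of 23 genes, 15 were higher and 2 lower by edgeR at the same threshold, 3 of them higher by more than 2-fold, with a median log2 fold change of 0.37. By the endothelial scaling, 22 were higher and none lower, 5 of them past 2-fold. With glmTreat, which tests against the 2-fold bound under the TMM scaling, 2 were past it and Il6 was not. Cxcl1, a neutrophil chemokine, rose from 6.63 and 6.33 CPM to 52.0 and 52.8 CPM (log2 fold change 3.01), Ccl2, a monocyte chemokine, from 13.9 and 12.9 CPM to 44.7 and 43.7 CPM (1.73), and Il6 from 8.22 and 7.90 CPM to 18.4 and 16.7 CPM (1.13). Nfkbia, the inhibitor that NF-kB induces first, had the highest level at 130 FPKM in sham ECs and was lower after PNX (-0.17), as was Rel (-0.22). Relative to the endothelial markers, Nfkbia was higher (0.10) and Rel did not pass (0.05).

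Heat shock genes, which also respond to handling of cells, spanned ranks from 36 to 5149 of the 17540 genes in sham ECs. Hspa8, the constitutive HSC70 gene, had 483 FPKM and rank 36 in sham ECs, and the inducible genes Hspa1b and Hspa1a had 266 and 192 FPKM, ranks 113 and 185. Of 15 genes, 10 were higher and 5 lower after PNX (edgeR, same threshold), none past 2-fold, with a median log2 fold change of 0.15. The rises were led by Hspa5 (0.55), the chaperone of the endoplasmic reticulum, Hspe1 (0.46) and Dnajb1 (0.44). The inducible Hspa1a and Hspa1b were lower, at -0.15 and -0.18, as were Hspb1 (-0.22) and Hsf1 (-0.33). Scaled to the endothelial markers, Hspa1a (0.12) and Hspa1b (0.09) were higher, and Hspb1 (0.05) and Hsf1 (-0.05) did not pass. Hspa1a and Hspa1b are near-identical copies between which the counting could have split reads, and their separate values are uncertain to that extent. Of the list 12 were higher and none lower under that scaling, with a median of 0.42.

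**Figure D4:**
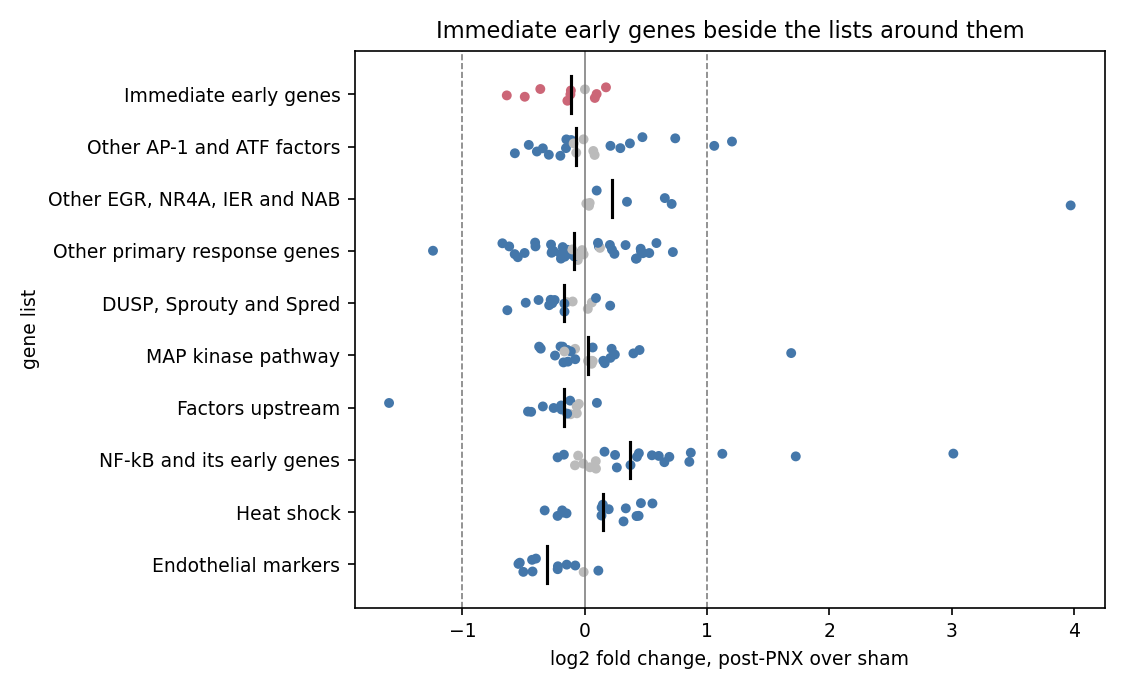
Log2 fold change of PNX over sham ECs (TMM scaling) for each gene tested of the immediate early genes, the lists around them and 12 endothelial markers; colored points passed an adjusted p of 0.01, grey points did not, black bars are list medians and dashed lines are 2-fold. The medians run from -0.31 in the endothelial markers to 0.37 in the NF-kB list, and that of the immediate early genes is -0.12; under the endothelial scaling all medians shift upward by about the 0.27 of all genes.

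RNA of cells other than ECs was present in the fraction, and many of its markers differed between the groups. The 12 endothelial markers summed to 12436 to 12563 CPM in sham and 10327 to 10365 CPM after PNX. The summed level of 9 macrophage and monocyte markers was 3623 to 3642 CPM in sham and 4721 to 4739 CPM after PNX, with 8 of the 9 higher and Lyz2 highest. Fibroblast markers, led by Col3a1, summed to 1350 to 1365 CPM in sham and 4898 to 4933 CPM after PNX, with 6 of 8 higher. Of the other fibroblast markers Pdgfra was lower (-0.23) and Tcf21 did not pass (0.02). Under the endothelial scaling Pdgfra did not pass (0.04) and Tcf21 was higher (0.29). Markers of alveolar type 2 cells, led by Sftpc, fell from 7036 to 7046 CPM to 4512 to 4545 CPM, with 6 of 6 lower. Markers shared by leukocytes, led by Laptm5, differed little, with 879 to 882 CPM in sham and 927 to 936 CPM after PNX and 3 of 6 higher. T and B cell markers were lower in 7 of 7 and 6 of 6 genes, airway markers in 6 of 6, and alveolar type 1 markers in 5 of 6. Mesothelial markers were higher in 6 of 6, smooth muscle and pericyte markers in 6 of 8, and platelet markers in 4 of 6. Adipocyte markers were higher in 4 of 4 tested, erythroid markers in 3 of 6 and proliferation genes in 9 of 9. Mast cell markers were higher in 5 of 7, and the 1 lower was Kit (-0.34). Kit led the summed level of that list, which was lower, so the sum followed Kit and not the other mast cell markers. Neutrophil markers were higher in 5 of 9 and lower in 4, and none of 6 NK cell markers passed (all by edgeR, same threshold). By the endothelial scaling, 5 of 7 T cell and 4 of 6 alveolar type 1 markers were lower, those of B cells, alveolar type 2 cells and airway in 6 of 6, and the neutrophil markers were higher in 5 and lower in 1. No marker in the tables was at 0 in every library. Immediate early genes can be switched on in many cell types. The part of other cell types in the levels of the 10 genes was not tested. Nor was the part of any change in cell types in their differences between groups.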

How the data were processed

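Lung ECs of 2 sham and 2 PNX libraries were measured by RNA sequencing. The study's methods name a strand-specific mRNA kit and paired-end reads, and the submitters' processing notes name mm10 and STAR. The counting program is not given in the sources used here. The authors deposited raw read counts per RefSeq transcript, together with FPKM and TPM values. The deposited FPKM and TPM are scaled over all transcripts, so a read over several transcripts of a gene counts more than once in their totals, while the order of genes within a library is kept. They were used for levels only.

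Counts of 1 transcript per symbol were fitted in R 4.3.3 with edgeR 4.0.16 (filterByExpr, TMM factors between 0.998 and 1.003, quasi-likelihood F test without covariates) over 16208 genes, with Benjamini-Hochberg adjustment over all of them. A standard error is the log2 fold change divided by the square root of F, and CPM are counts scaled to the library total after TMM. Log2 CPM for spreads and distances used a prior count of 2. The fit was tested on simulated data with known changes. A gene was called with an adjusted p under 0.01, and past 2-fold with a log2 fold change beyond 1 as well, the thresholds of the study's methods. The 10 genes and all lists were chosen with earlier results of these data known. The text names all 10 genes, and of each list the 3 largest rises and falls among called genes and the gene with the highest FPKM, and the gene with the highest normalized count of some cell type lists. Other genes named (Jund, Egr2, Creb1, Srf, Hspa1a, Pecam1, Pdgfra and Tcf21) were chosen after their values were seen. A gene that the rule names is not reported here. Motifs and ATTTA were counted in RefSeq promoters and in GENCODE transcripts of the same build.

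The fit was repeated with size factors of DESeq2, with raw library size, with scaling to 12 endothelial markers, no filter, a mean of at least 50 counts, DESeq2 1.42.0's Wald test (independent filtering at 0.01), glmTreat of edgeR, sums over the transcripts of a gene, a replicate block, an adjusted p under 0.05, and each library left out.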

Additional observations from a re-analysis of the deposited data

How the results depend on the processing

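For the 10 genes, 120 log2 fold changes came from 12 alternatives other than the endothelial scaling. They kept their direction except in Junb, which did not pass as reported and changed sign in 4 of them. Where no library was left out, they also kept their side of the threshold. The alternative with an adjusted p under 0.05 reuses the reported fold changes, so no direction could change there. Sums over transcripts use the same counts for each of the 10 genes except Egr3. The number past 2-fold was 0 in every alternative. Scaling to 12 endothelial markers, which raised the median of all genes to 0.27, turned Fos to 0.16, Egr1 to 0.16 and Ier2 to 0.13, made 7 genes higher and 2 lower and moved the median of the 10 genes to 0.16. It moved the list medians to 0.20 (other AP-1 and ATF), 0.49 (other EGR, NR4A and IER), 0.19 (other primary response), 0.11 (DUSP, Sprouty and Spred), 0.30 (MAP kinase pathway), 0.11 (factors upstream), 0.65 (NF-kB) and 0.42 (heat shock). The shift follows from the construction of this scaling, since 10 of the 12 markers were lower. A mean of at least 50 counts, which tests fewer genes, gave medians of 0.10 (other EGR, NR4A and IER), -0.20 (DUSP, Sprouty and Spred) and -0.023 (MAP kinase pathway).

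With each library left out in turn the medians ranged from -0.13 to -0.095 (the 10 genes), from -0.077 to 0.0077 (other AP-1 and ATF), from 0.19 to 0.26 (other EGR, NR4A and IER), from -0.11 to -0.065 (other primary response), from -0.25 to -0.18 (DUSP, Sprouty and Spred), from 0.014 to 0.041 (MAP kinase pathway), from -0.18 to -0.14 (factors upstream), from 0.32 to 0.42 (NF-kB) and from 0.14 to 0.17 (heat shock). The largest of these moves were without PNX library 1, which turned the median of the other AP-1 and ATF genes and moved that of the DUSP, Sprouty and Spred genes to -0.25. Without sham library 2 the median of the MAP kinase pathway, close to 0 throughout, was 0.01.

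The call of Mapk10 and that of Mef2b past 2-fold were lost with DESeq2's Wald test, with glmTreat, and without PNX library 1, PNX library 2 or sham library 2, and with the filter of 50 counts neither was tested, nor was Egr4. Batf3 was no longer past 2-fold with glmTreat or without PNX library 1. Over all genes 957 were higher and 269 lower past 2-fold, against 1360 and 82 under the endothelial scaling and 719 and 160 with the filter of 50 counts. Under the endothelial scaling Edn1 was no longer past 2-fold and 5 NF-kB genes were, against 3, and with glmTreat 2 were. With the replicate number as a block, 3 genes were higher and 6 lower, as without it, and no call changed, while same-numbered libraries deviated together only weakly (r = 0.032 across genes, which are not independent), so that the numbers were not taken to pair the libraries. Where a library was left out, its group's lone library was assumed to vary like the other group. The depth limited only genes with few counts, such as Egr4.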
